A study of Drosophila montana with 23 samples.

Results

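The comparison described here follows overwintered females of *Drosophila montana*, a northern fly that spends the winter as an adult in reproductive diapause, across the last step of diapause termination. It sets 3 arrays of 250-day-old females (250D) against 3 arrays of 220-day-old females (220D), out of 23 arrays in the series, and covers all 218 genes for which the array carried a probe. In both groups the females came from 1 isofemale strain (175OJ8), meaning a line founded by a single wild female. They had entered diapause in the autumn conditions of a climate chamber that mimicked the seasons of northern Finland, and had spent the artificial winter in it. The 220D females were sampled 10 days after the winter period, at the beginning of diapause offset, and are labelled diapausing. Their ovaries were pre-vitellogenic, a stage that was set by dissection. The 250D females were sampled 30 days after the winter, after the offset of diapause, and are labelled non-diapausing, with mature ovaries. The ages and the days after winter give different intervals between the groups, and both are printed as given. Each array held total RNA of 2 pooled whole females. The groups therefore differed at once in ovarian stage, in age and in the spring conditions of the chamber, and the parts of these cannot be told apart. The authors describe the replicates as biological, so p-values measure the spread between pools of different females, technical spread included. Nothing in the labels says whether the replicates came from separate cages.

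In reproductive diapause, ovarian development stops before yolk is taken up into the eggs, while fat stores and stress protection are built up. When it ends, the ovary grows until it makes up a large part of the abdomen, and its nurse cells load RNA into the eggs. The array carried none of the genes that usually define ovarian tissue, such as yolk protein, *vasa*, *nanos* or *oskar* genes, so the ovarian stage could not be checked against markers. In RNA of whole females, fewer cells of one type and less RNA per cell cannot be told apart.

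The values are quantile-normalized log2 intensities of the brightest probe of each gene, and values for single arrays are given in the order of replicates a, b and c. Levels of different genes come from different probes and are not compared with each other. Across genes the 220D arrays correlated with each other at 0.982 or more and the 250D arrays at 0.978 or more, while pairs of arrays from different groups correlated at 0.904 to 0.947. In the 6 arrays, 68.2 to 78.6% of gene spots were well above background, against 59.5 to 90.1% in the other arrays but 1. That array, 7ND replicate c (a non-diapausing sample of 7 days), stood apart with a median intensity of 530 against 19.4 to 49.7 in the rest outside the 6, and with 25.4% of spots marked as outliers. It entered this comparison through the shared normalization, the choice of the brightest probe and the shared estimate of the spread. Counts without it are given where that fit was run.

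Between 220 and 250 days, 19 genes rose and 28 fell at least 2-fold with an adjusted p under 0.05 (limma, 8.72% and 12.8% of 218 genes). The median log2 change over all genes was -0.10. Without 7ND replicate c the counts were 30 higher and 41 lower, and these included the same 47 genes. Without normalization between arrays there were 30 higher and 23 lower genes around a median change of 0.15, and with scaling on spike-in probes 21 and 18 around 0.11, so that the balance of the directions depended on the scaling. Arrays of 250D all lay above those of 220D in 59 genes (27.1%) and all below in 61 (28.0%), and all 47 called genes were among these 120. Each slide held 1 array of each group. As their groups did not overlap, the 19 genes were necessarily higher and the 28 lower in 250D within each of the 3 slides. The median difference of the higher genes was 2.03, 1.31 and 1.75 within slides 1, 2 and 3. That of the lower genes was -2.18, -1.31 and -2.13. The differences were thus smallest on slide 2, which held replicate c of both groups. Among the increases, 5 were at least 8-fold, and among the decreases 2 were.

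**Figure D1:**
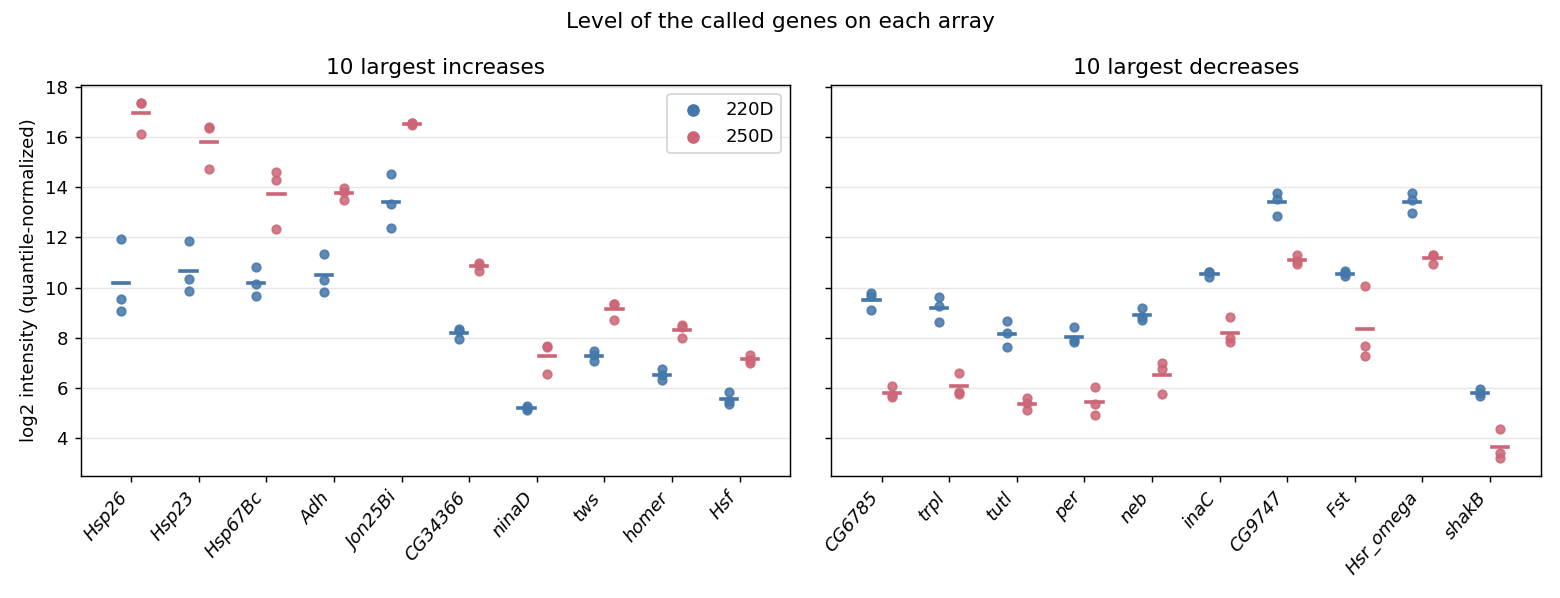
Log2 intensity (y axis) of 20 called genes, namely the 10 that rose most and the 10 that fell most, on each of the 3 arrays of 220D (blue) and 250D (red), with horizontal bars at the group means. The groups are apart in every gene shown. Replicate c of 250D lies closest to 220D in many of them, such as Hsp26, Hsp23, Adh, trpl, per and Fst, but not in CG34366 or neb.

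The largest increases were in small heat shock proteins, chaperones that hold unfolded proteins in a soluble state. In *D. melanogaster* several of them, *Hsp26* among them, are also made in the ovary without any heat stress. The log2 level of *Hsp26* was 11.94, 9.55 and 9.06 in 220D and 17.35, 17.36 and 16.10 in 250D. All 250D arrays were thus far above all 220D arrays, and the probe was the brightest on 2 of them, where quantile normalization leaves no room for a higher value. The fitted change was 6.75 ± 0.82 (log2, SE), or 108-fold, with an adjusted p of 8.57e-06. It is capped by that ceiling, and was 7.18 without normalization and 6.96 and 7.13 with scaling on the 75th percentile and on spike-in probes. *Hsp23* stood at 11.85, 10.33 and 9.86 in 220D and at 16.34, 16.38 and 14.72 in 250D, a 35.0-fold increase (adjusted p = 5.09e-05). For *Hsp67Bc*, levels of 10.81, 10.13 and 9.67 were followed by 14.27, 14.61 and 12.34, an increase of 11.6-fold (adjusted p = 0.00123) that was seen in 1 of its 4 probes. In all 3 genes replicate c of 250D was the lowest of its group and replicate a of 220D the highest of its own. The other 2 small heat shock genes did not pass the test, with log2 changes of 0.80 for *Hsp20* and -0.52 for *l(2)efl*, and their groups overlapped. So 3 of 5 members were called higher, against 8.72% of all genes, with a median log2 change of 3.54 against -0.10 over all genes. That median is the value of *Hsp67Bc*, so it and 1 of the 3 calls rest on a single probe.

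The large chaperones, which fold or refold other proteins with the use of ATP, were not called by their brightest probes. In *Hsc70-2*, however, 8 of 12 probes were called lower. That gene and the co-chaperone *Hop* are taken up with the probes below. Of 11 genes of the Hsp60, Hsp70 and Hsp90 families, 0 passed the limma test in either direction (1 at an unadjusted p under 0.05, and 0 without 7ND replicate c), and their log2 changes ran from -0.63 (*CG7182*) to 0.82 (*Hsc70Cb*) around a median of 0.02. *Hsp83*, the fly Hsp90, was at 12.63, 12.85 and 12.83 in 220D and at 12.78, 12.89 and 12.75 in 250D, and the groups overlapped. Among 11 co-chaperones and regulators, 1 was called higher (*Hsf*) and 1 lower (*stv*), against 8.72% and 12.8% of all genes. *Hsf*, which encodes the transcription factor that switches on heat shock genes, stood at 5.37, 5.47 and 5.83 in 220D and at 7.12, 7.32 and 7.02 in 250D, a log2 change of 1.60 ± 0.37 (adjusted p = 0.00374). *stv* (starvin), a co-chaperone of Hsp70 of the BAG family, fell by 1.65 ± 0.55 (adjusted p = 0.0376), from 9.69, 9.63 and 9.40 to 7.94, 7.62 and 8.22. Its call was lost in 6 of 19 alternative settings. *Hsr_omega*, a heat-inducible RNA that does not code for a protein, fell from 13.78, 13.49 and 12.98 to 11.31, 10.96 and 11.31. This was a change of -2.22 ± 0.22, with the lowest adjusted p of all genes (1.66e-06), and all 6 of its probes were below 0.

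Of 10 genes of carbohydrate metabolism, 2 were called higher, against 8.72% of all genes, and 0 lower. *Adh*, alcohol dehydrogenase, stood at 9.84, 10.32 and 11.34 in 220D and at 13.82, 13.95 and 13.50 in 250D, an increase of 9.57-fold (log2 3.26 ± 0.47, adjusted p = 4.43e-05). *Gapdh2*, a glycolytic enzyme, rose by 1.11 ± 0.30 (adjusted p = 0.0112), and its paralogue *Gapdh1* rose by 0.88 ± 0.29 (adjusted p = 0.0364), which is under 2-fold. Probes of such near-identical copies may share signal. *CG12030* went the other way, with a fall by 0.98 ± 0.26 that was also under 2-fold (adjusted p = 0.0105). The other members, among them *Tpi*, *Pgm* and *Treh*, did not pass, with log2 changes between -0.74 (*CoI*) and 0.64 (*Treh*). *Jon25Bi*, a serine protease of the midgut and the single gut protease measured, rose 8.62-fold, from 13.32, 12.36 and 14.54 to 16.54, 16.54 and 16.46 (adjusted p = 5.4e-05). Replicates a and b of 250D have the same value, as quantile normalization gives to spots of equal rank.

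Of 8 genes of fatty acid desaturation, 2 were called lower, against 12.8% of all genes. The groups overlapped in 5 of them, and in 98 of the 218. The median log2 change was -0.69 against -0.10 over all genes, with all 8 values below 0, as were 122 of the 218. *CG9747*, of the desaturase family, fell from 13.53, 13.77 and 12.87 to 11.06, 11.30 and 10.93 (log2 -2.29 ± 0.46, adjusted p = 0.00106). *CG15531*, of the same family, fell from 14.25, 14.34 and 14.70 to 12.09, 11.96 and 12.91 (log2 -2.11 ± 0.46, adjusted p = 0.00228). *desat1*, the main delta-9 desaturase of flies, had levels of 15.31, 15.70 and 15.89 and then 15.13, 14.79 and 15.46, which overlapped (log2 -0.51, adjusted p = 0.246).

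Among genes linked to cold, *Fst* (Frost), which is induced by cold in *D. melanogaster*, was called lower. Its level was 10.57, 10.45 and 10.67 in 220D and 7.27, 7.69 and 10.05 in 250D, so that replicate c of 250D lay just below 220D while replicates a and b were far below. The change was -2.22 ± 0.56 (adjusted p = 0.00651), and without replicate a of 250D it did not pass. *regucalcin*, a calcium-binding protein known for its response to cold acclimation, was lower on all 250D arrays (12.37, 12.36 and 12.45 against 12.85, 12.78 and 13.46) but did not pass (log2 -0.64, adjusted p = 0.246). *P5cr*, the reductase that makes proline, rose by 0.77 ± 0.21 (adjusted p = 0.0108), which is 1.71-fold and so not called. *slgA*, the proline dehydrogenase of the opposite pathway, had a change of -0.09 with overlapping groups.

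**Figure D2:**
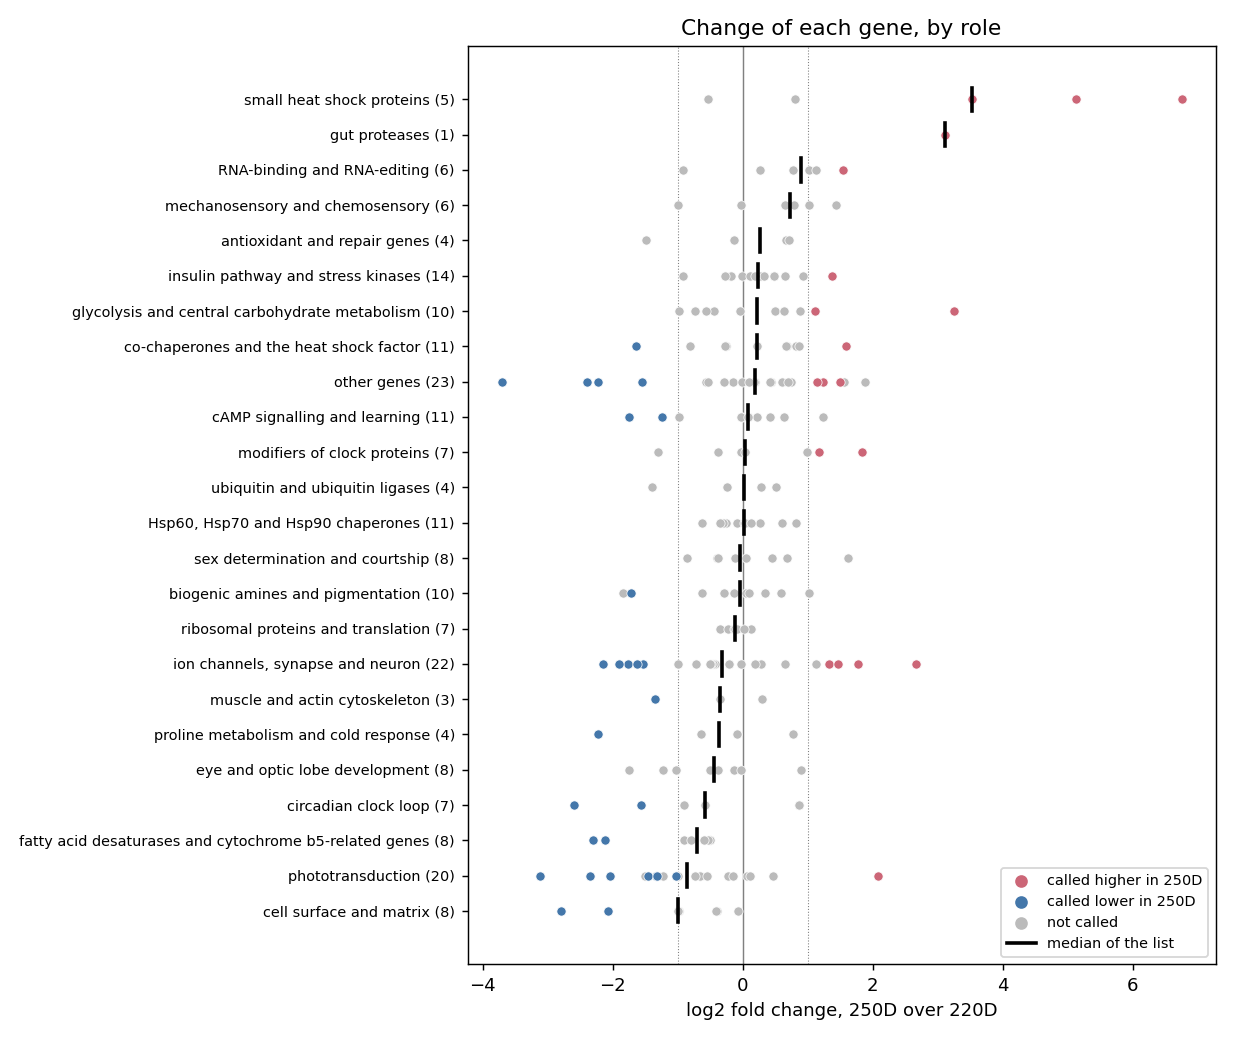
Log2 fold change of each of the 218 genes (x axis, 250D over 220D), with 1 line per role and the number of measured genes in brackets. Points called higher in 250D are red, those called lower are blue and those not called are grey, and black bars mark medians. Small heat shock proteins reach 6.75, and most phototransduction and all desaturase genes lie below 0.

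Phototransduction is the cascade in which light-activated rhodopsins act through a G protein and phospholipase C on the TRP and TRPL channels of the eye. In this list 7 of 20 genes were called lower and 1 higher, against 12.8% and 8.72% of all genes. The median log2 change was -0.86, against -0.10 over all genes. Of the 20 members 16 were below 0, as were 122 of the 218 genes. In 13 all 250D arrays lay below the 220D arrays, against 28.0% of all genes. Without 7ND replicate c, 10 were called lower, against 41 of all 218 genes. The channel gene *trpl* stood at 9.64, 9.29 and 8.64 in 220D and at 5.83, 5.76 and 6.62 in 250D, 8.68-fold lower (adjusted p = 2.64e-05). *trp*, the other channel, fell by 1.02 ± 0.30 (adjusted p = 0.0159). *inaC*, the eye's protein kinase C, fell from 10.61, 10.63 and 10.43 to 7.99, 7.83 and 8.83 (log2 -2.34 ± 0.37, adjusted p = 0.000108), and *inaD*, the scaffold that holds it beside the channel, fell by 1.32 ± 0.35 (adjusted p = 0.0101). Among the rhodopsins, *Rh5* fell by 2.04 ± 0.38 (adjusted p = 0.000575), *Rh4* by 1.46 ± 0.50 (adjusted p = 0.0417) and *Rh3* by 1.33 ± 0.48 (adjusted p = 0.0492). The calls of *Rh3* and *Rh4* were lost in 9 and 8 of 19 alternative settings, and those of *trp* and *inaD* in 7 and 6. *ninaE*, the rhodopsin of the outer photoreceptors, overlapped between the groups (15.02, 14.91 and 14.31 against 14.46, 14.15 and 14.99, log2 -0.22). The arrestins *Arr1* and *Arr2* did not pass, with log2 changes of -0.66 and -0.55.

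The exception was *ninaD*, a scavenger receptor needed for the uptake of carotenoids from which the visual pigment is made. It was at 5.20, 5.28 and 5.13 in 220D and at 7.65, 6.55 and 7.66 in 250D, a log2 increase of 2.09 ± 0.60 (adjusted p = 0.0159). Of 13 markers of photoreceptors, 13 had a log2 change below 0 in their brightest probe, as had 122 of the 218 genes. For 1 of them, *ninaC*, 2 of 4 probes were above 0. In a limma fit over all probes, 1 of these was called higher, at 2.19 ± 0.48 (adjusted p = 0.00367). The 7 markers called lower, against 12.8% of all genes, are those called lower in the phototransduction list. The markers are therefore no separate support. Their mean log2 level was 9.89 to 10.56 in 220D and 8.69 to 9.40 in 250D, with no overlap, while the log2 of their summed intensity, in which the brightest probes weigh most, overlapped, at 15.51 to 16.21 and 15.05 to 15.78. The share of eye RNA in the pools was not tested.

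In the circadian clock, 2 of 7 genes of the core loop were called lower, against 12.8% of all genes. *per* (period), the repressor of the loop, stood at 7.91, 7.83 and 8.42 in 220D and at 4.94, 5.37 and 6.05 in 250D, 6.06-fold lower (adjusted p = 0.000174), and all 15 of its probes above background were below 0. *cry* (cryptochrome), the blue-light receptor that resets the clock, fell from 9.97, 9.65 and 10.18 to 8.20, 7.83 and 9.09 (log2 -1.56 ± 0.40, adjusted p = 0.00788). *tim*, the partner of *per*, had overlapping groups with a log2 change of -0.57. The activator *Clk* and the repressor *cwo* lay higher on all 250D arrays without passing the test (log2 0.88 and 0.86, adjusted p = 0.179 for both). Of 7 modifiers of clock proteins, 2 were called higher, against 8.72% of all genes. *tws*, a regulatory subunit of protein phosphatase 2A, rose by 1.85 ± 0.44 (adjusted p = 0.00468), from 7.09, 7.32 and 7.47 to 9.36, 9.36 and 8.70. *slmb*, an F-box protein of a ubiquitin ligase, rose by 1.17 ± 0.41 (adjusted p = 0.0448), a call that was lost in 6 of 19 alternative settings. Time of day at sampling was not given in the sources used here.

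Genes of ion channels, synapses and neurons went in both directions, with 4 of 22 called higher and 5 lower (8.72% and 12.8% of all genes) and a median log2 change of -0.32. *CG34366* stood at 7.96, 8.36 and 8.27 in 220D and at 10.92, 10.67 and 10.99 in 250D, 6.35-fold higher (adjusted p = 0.000764). *homer*, a scaffold of the postsynaptic side, rose by 1.77 ± 0.35 (adjusted p = 0.000852). The calcium channel gene *cac* rose by 1.33 ± 0.47 (adjusted p = 0.0468), a call lost in 11 of 19 alternative settings. The acetylcholinesterase gene *Ace* is treated with the probes below. On the other side were *shi*, the fly dynamin, which fell by 1.76 ± 0.35 (adjusted p = 0.000919), *Slob*, which binds the Slowpoke potassium channel and fell by 1.63 ± 0.30 (adjusted p = 0.000596), and *syt*, synaptotagmin, which fell by 1.53 ± 0.46 (adjusted p = 0.0213), a call lost in 7 of 19 alternative settings. The gap junction gene *shakB* and the potassium channel gene *eag* also fell, by 2.15 ± 0.76 and 1.89 ± 0.61 (adjusted p = 0.0468 and 0.0323). Only 1 of 3 arrays of 250D was well above background for either of these genes, so that the size of the fall is uncertain, and their calls were lost in 8 and 10 of 19 alternative settings. Of 6 markers of neurons, 5 had a log2 change below 0, as had 122 of the 218 genes. One was called higher (*cac*) and 1 lower (*syt*), against 8.72% and 12.8% of all genes. The log2 of their summed intensity was 11.04 to 11.09 in 220D and 10.80 to 11.01 in 250D, while their mean log2 level overlapped, at 6.66 to 7.03 and 6.31 to 6.69.

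Of 11 genes of cAMP signalling and learning, 2 were called lower, against 12.8% of all genes. *for* (foraging), a cGMP-dependent protein kinase, stood at 10.11, 10.49 and 9.85 in 220D and at 8.59, 8.30 and 8.30 in 250D (log2 -1.75 ± 0.23, adjusted p = 1.83e-05). *rut*, an adenylyl cyclase, fell by 1.23 ± 0.42 (adjusted p = 0.0417), a call lost in 11 of 19 alternative settings. *dnc*, the phosphodiesterase that breaks cAMP down, fell by 0.98 ± 0.27 (adjusted p = 0.0133), just under 2-fold. Of 8 cell surface and matrix genes, 2 were called lower, against 12.8% of all genes. All 8 log2 changes were below 0, as were 122 of the 218, and their median was -0.99. *tutl* (turtle), an immunoglobulin-type surface protein of neurons, fell from 8.66, 8.22 and 7.63 to 5.42, 5.12 and 5.61, 6.90-fold (adjusted p = 8.57e-06). *knk*, needed for the organization of cuticle chitin, fell from 6.57, 6.77 and 6.42 to 4.01, 4.71 and 4.85 (log2 -2.06 ± 0.31, adjusted p = 6.61e-05). *Ddc*, dopa decarboxylase of the amine pathway, fell by 1.72 ± 0.45 (adjusted p = 0.0101). Its 220D arrays were spread widely, at 10.38, 12.43 and 9.83, and without replicate b of 220D the fall was 0.95, under 2-fold.

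Of 6 RNA-binding genes, 1 was called higher, against 8.72% of all genes, and 0 lower. In 5 of 6 all 250D arrays were above all 220D arrays, against 27.1% of all genes, and in *cpo* all were below. *Adar*, the enzyme of A-to-I RNA editing, was the gene called, with levels of 8.05, 7.76 and 7.45 followed by 9.59, 9.60 and 8.73 (log2 1.55 ± 0.34, adjusted p = 0.00245). *cpo* (couch potato), tied to diapause in *D. melanogaster*, fell by 0.91 ± 0.26 (adjusted p = 0.0159), which is under 2-fold. *lark* and *Fmr1* had log2 changes of 1.13 and 0.78 that did not pass. Of 11 genes whose RNA is known from oogenesis or from the egg, a list that overlaps the others, 3 were called higher and 1 lower (8.72% and 12.8% of all genes), around a median of 0.09. The 3 were *Hsp26*, *tws* and *Histone_H3.3A*, a replacement histone that rose by 1.15 ± 0.37 (adjusted p = 0.0325), from 12.66, 11.89 and 11.62 to 13.37, 13.33 and 12.93. *Btk29A*, a Tec-family kinase needed for ring canals of the egg chamber in *D. melanogaster*, rose by 1.37 ± 0.42 (adjusted p = 0.0231). It was the one called of 14 genes of insulin and stress kinase signalling, against 8.72% of all genes called higher. In that list *InR* and *Thor* had log2 changes of -0.19 and -0.26.

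Of the remaining genes, *CG6785* showed the largest decrease of all, from 9.67, 9.79 and 9.11 to 5.64, 5.73 and 6.09, which is 13.0-fold (adjusted p = 8.57e-06). *CG4049* and *CG7650* rose by 1.49 ± 0.45 and 1.25 ± 0.42 (adjusted p = 0.0206 and 0.0372), each losing its call in 6 of 19 alternative settings. *Mhc*, the muscle myosin heavy chain, fell by 1.35 ± 0.32 (adjusted p = 0.00468), from 16.20, 15.76 and 16.11 to 14.90, 14.14 and 14.98. The other genes of the muscle and actin list, *Act_42A* and *sls*, had changes of -0.35 and 0.30 with overlapping groups. The log2 of the summed intensity of the 3, in which the bright *Mhc* probe weighs most, was 16.01 to 16.47 in 220D and 14.73 to 15.52 in 250D, while their mean log2 level overlapped, at 12.02 to 12.68 and 11.56 to 12.24. The share of muscle RNA was not tested. For ribosomal proteins and translation, 0 of 7 genes were called (0 also at an unadjusted p under 0.05 in limma, and without 7ND replicate c), and their log2 changes stayed between -0.34 (*RpL19*) and 0.13 (*RpL11*). None was called in the lists of eye development (8 genes), sex determination (8), mechanosensory and chemosensory genes (6), antioxidants (4) and ubiquitin ligases (4). In limma 2, 2, 2, 1 and 1 of them were at an unadjusted p under 0.05, and without 7ND replicate c 2, 1, 3, 1 and 1 were called. The largest changes there were those of *ato*, at -1.74 (adjusted p = 0.218), and *tra*, at 1.62 (adjusted p = 0.0563). *mnb* (minibrain), a protein kinase, had the largest increase that did not pass, at 1.88 ± 0.71 (adjusted p = 0.0595), with levels of 5.77, 5.98 and 5.50 in 220D and of 8.10, 7.68 and 7.10 in 250D.

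**Figure D3:**
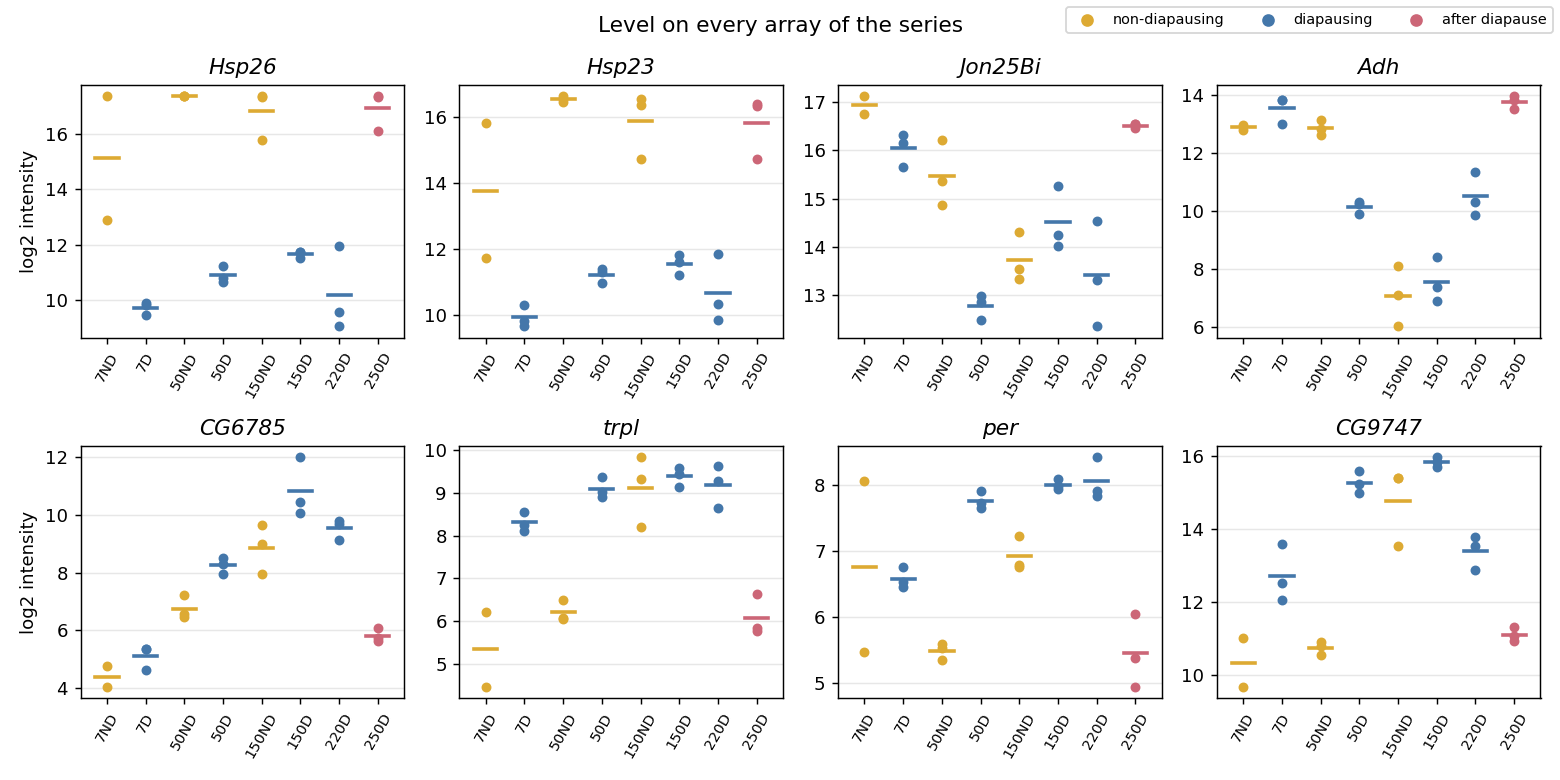
Log2 intensity (y axis, a separate scale for each gene) on every array of the 8 groups for 4 genes called higher and 4 called lower in 250D. Yellow marks non-diapausing, blue diapausing and red post-diapause females, and bars are group means. Hsp26 and Hsp23 lie high in 50ND, 150ND and 250D, while Adh is lowest at 150 days in both states.

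Each array held other females, and the 250D level can be set beside that of every other group. *Hsp26* averaged 9.71 to 11.67 in 7D, 50D, 150D and 220D, and 16.94 ± 0.73 (SD, n = 3) in 250D, beside 17.36 on all 3 arrays of 50ND and 16.83 ± 0.91 in 150ND. *per* averaged 5.45 ± 0.56 in 250D, close to 5.49 ± 0.13 in 50ND, while 50D, 150D and 220D lay between 7.76 and 8.05. *Adh* followed another course, at 10.13 ± 0.22 in 50D, 7.56 ± 0.78 in 150D, 10.50 ± 0.76 in 220D and 13.76 ± 0.23 in 250D. *CG6785* stood at 5.12 ± 0.42 in 7D, 8.25 ± 0.29 in 50D and 10.82 ± 1.02 in 150D, and at 9.52 ± 0.36 in 220D and 5.82 ± 0.24 in 250D. *tutl* was at 6.97, 6.46 and 7.68 in 7D, 50D and 150D, at 8.17 in 220D and at 5.38 in 250D. Of the 11 genes called between 150D and 220D (5.05% of 218), 4 were also called between 220D and 250D, and these comparisons share the 220D arrays. *Adh* rose in both steps, by 2.94 and then by 3.26. *CG9747* fell in both, by 2.44 and then by 2.29. *cry* and *inaD* turned, with log2 changes of 2.0 and 1.62 up to 220 days and of -1.56 and -1.32 after that.

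A further question was whether the change at the end of diapause was like the difference between non-diapausing and diapausing females earlier in the year, before any winter. For this the change from 220D to 250D was set against the difference between 50ND and 50D, 3 arrays each, which share no array with 220D or 250D. The 50ND females are labelled summer and entered the chamber under long days, and the 50D females are labelled autumn and entered under short days. Reproductive state, day length and season therefore cannot be told apart in that difference. Between 50ND and 50D, 23 genes were called higher in the non-diapausing females and 38 lower (10.6% and 17.4%). Of the 19 genes higher in 250D, 15 were among the 23 (78.9% of the first list and 65.2% of the second), and of the 28 lower genes, 21 were among the 38 (75% and 55.3%). Genes called in opposite directions numbered 0. Over all 218 genes the 2 differences had the same sign in 180 (82.6%), with Pearson's r of 0.86 and Spearman's rho of 0.81 across genes, which are not independent replicates and share their probes. The 3 small heat shock genes had differences of 6.46 (*Hsp26*), 5.31 (*Hsp23*) and 4.10 (*Hsp67Bc*) at 50 days, beside 6.75, 5.13 and 3.54 in spring. Both values of *Hsp26* are capped, since its probe was at the top of the scale on all 3 arrays of 50ND and on 2 of 250D.

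**Figure D4:**
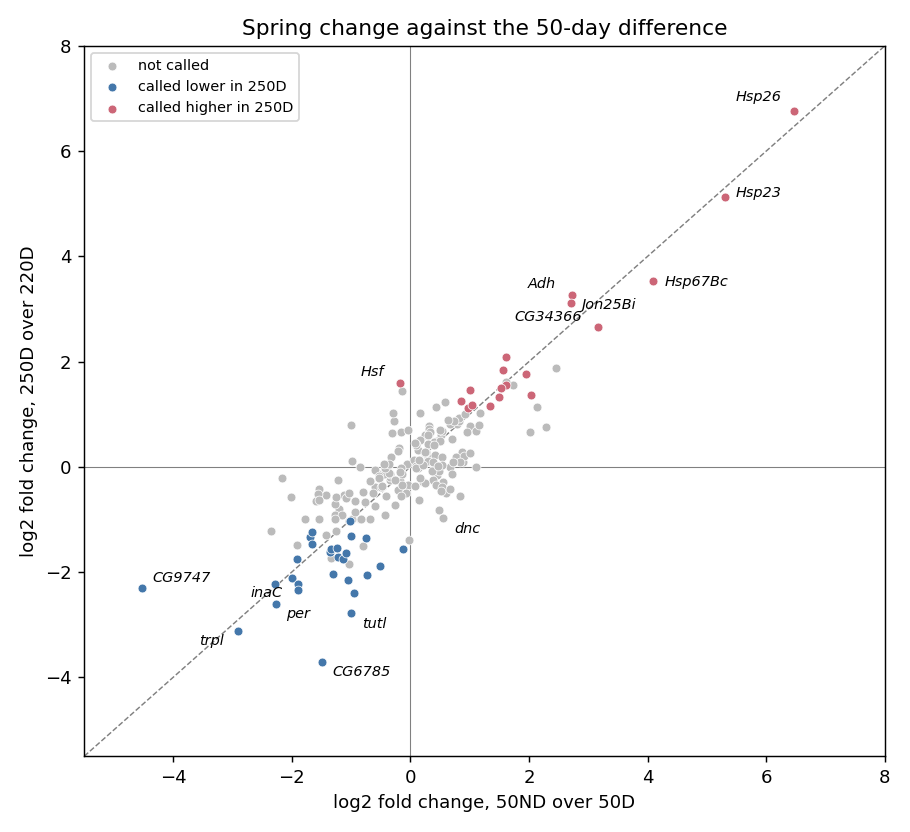
Log2 fold change of 250D over 220D (y axis) against that of 50ND over 50D (x axis) for 218 genes, with genes called higher in 250D in red and called lower in blue. The dashed line marks equal values, and CG9747 (-2.29 against -4.53), CG6785 (-3.71 against -1.50) and Hsf (1.60 against -0.17) are among the called genes away from it.

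The difference between the 2 contrasts was tested gene by gene in the same limma fit. At an adjusted p under 0.05, 0 of 218 genes (0.0%) differed, and 20 did at an unadjusted p under 0.05. This count depended on arrays of other groups. With 7ND replicate c left out 10 genes passed, and with 150ND replicate c left out 6 did, 5 of them among the 10. Under the deposited table of processed values 12 passed, which held all 10. Among the 10, *Hsf* was 1.82 ± 0.49 higher in the spring change (adjusted p = 0.0378), and *CG9747* was 2.25 ± 0.59 higher, having fallen less (adjusted p = 0.0369). *tutl* and *CG6785* fell further in spring, by 1.83 ± 0.46 and 2.27 ± 0.63 (adjusted p = 0.0364 and 0.0459). *dnc* differed by -1.57 ± 0.30 (adjusted p = 0.00555), with changes of -0.98 in spring and 0.55 at 50 days. The others were *ari-1*, *ey* and *B4*, lower in the spring change, and *drpr* and *ple*, higher. Out of 16 alternative settings, *dnc* passed in 6, *tutl* in 4, and *Hsf*, *drpr* and *ey* in 3 each. *CG9747*, *CG6785*, *ari-1*, *B4* and *ple* passed in only 2 each. Compared directly, 250D and 50ND had 0 called genes of 218, with 14 at an unadjusted p under 0.05 in limma. This comparison, like those of 50ND with 50D and 220D with 150D, was run only with 7ND replicate c in the fit. The median absolute log2 difference between these groups was 0.29, and 10 genes were at least 1 log2 unit apart, against 66 between 250D and 220D.

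Most genes had several probes, and in some genes these did not move together. Of 1850 probes, 1374 were well above background on at least 3 of the 6 arrays, and 6.7% of these were called higher and 9.75% lower in a fit over all probes. In the 19 genes called higher, 55 of 108 such probes were higher and 4 lower, and in the 28 genes called lower, 88 of 180 were lower and 3 higher. Of 45 called genes with over 1 such probe, 30 had all of them on the same side of 0. In the 171 genes not called, 34 of 1086 such probes were higher and 42 lower, and these lay in 36 genes. The array carries probes named as reverse complements beside the others. Which strand a probe reads was not given in the sources used here, and the brightest probe of a gene can be of either kind. Probes that differ from the brightest one were singled out after their values had been seen, as those called that lay over 3 log2 units from the value of their gene. There were 16 such probes in 10 genes.

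*P5cr* held the largest change of any of these. One probe named as a reverse complement stood at 1.74, 1.79 and 1.50 in 220D, not well above background on any of the 3 arrays, and at 8.14, 10.38 and 11.35 in 250D, which is at least 118-fold higher (adjusted p = 0.000443). A second, numbered probe of the gene rose at least 17.1-fold (adjusted p = 0.00114), from 1.92, 1.93 and 1.81 to 5.63, 7.46 and 8.42. The 4 others of its 6 probes had log2 changes from 0.77 to 1.59, of which the brightest is given above. The first probe was also raised in 50ND (6.11 to 9.59) and on replicate a of 7ND (10.51, with 1.81 on replicate c, the array that stood apart), but not in 150ND, where it lay between 2.22 and 3.46. *Hop*, the co-chaperone that links Hsp70 to Hsp90, showed a like pattern. One of its 16 probes went from 6.29, 6.37 and 6.89 to 11.86, 11.95 and 12.50 (log2 5.59 ± 0.37, adjusted p = 1.58e-08), while its brightest probe had a log2 change of 0.69 ± 0.73 (adjusted p = 0.51). That probe lay between 11.67 and 12.22 in 50ND and between 6.50 and 7.07 in 150ND. The probe named as its reverse complement had a log2 change of 0.24 and was called in neither direction.

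*neb*, which encodes a kinesin-like motor, was called lower by its brightest probe, from 8.82, 9.18 and 8.73 to 6.99, 6.76 and 5.78 (log2 -2.40 ± 0.52, adjusted p = 0.0022). Its 8 probes fell into opposite sets. The 3 named as reverse complements and 1 more fell by 2.40 to 4.76, and the 4 others had log2 changes from 0.89 to 1.37, of which 2 were called higher. In *Hsp67Bc* the reverse-complement probe fell by 2.80 ± 0.36 (adjusted p = 3.68e-05) where the brightest probe rose by 3.54. Its 2 other probes had log2 changes of 0.22 and 0.09 and were not called, so that the increase rests on 1 of 4 probes, and the mean of all 4 changed by 0.26. In *Ace* the brightest probe, itself named as a reverse complement, rose by 1.47 ± 0.25 (adjusted p = 0.00021), while the 4 other probes above background had log2 changes from -1.03 to -1.92 and 3 of them were called lower. In *rut*, 1 of the 12 probes above background was called higher, at 2.36 ± 0.56, and 1 was called lower, while 4 of the 12 were above 0. Its brightest probe did not pass in the limma fit over all probes (adjusted p = 0.0583). *sbb* (scribbler), which encodes a nuclear protein, was called lower at -1.55 ± 0.42 (adjusted p = 0.0109). It had 9 of its 11 probes above background on the positive side, and its 220D arrays were spread from 10.71 to 13.12.

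Among genes not called, *Hsc70-2* had 12 probes of 12 below 0, of which 8 were called lower, down to -3.81 ± 0.27 (adjusted p = 2.49e-08) in a reverse-complement probe that went from 8.98, 8.93 and 8.76 to 4.81, 4.96 and 5.47. Its brightest probe had a change of -0.25. *CG42318* had 3 of 8 probes called lower, from -2.49 to -3.04, and 4 above 0. When every probe of a gene was averaged, 16 genes were called higher and 20 lower, 28 of the 47 were called again in the same direction, and *Ace* and *sbb* changed sign.

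**Figure D5:**
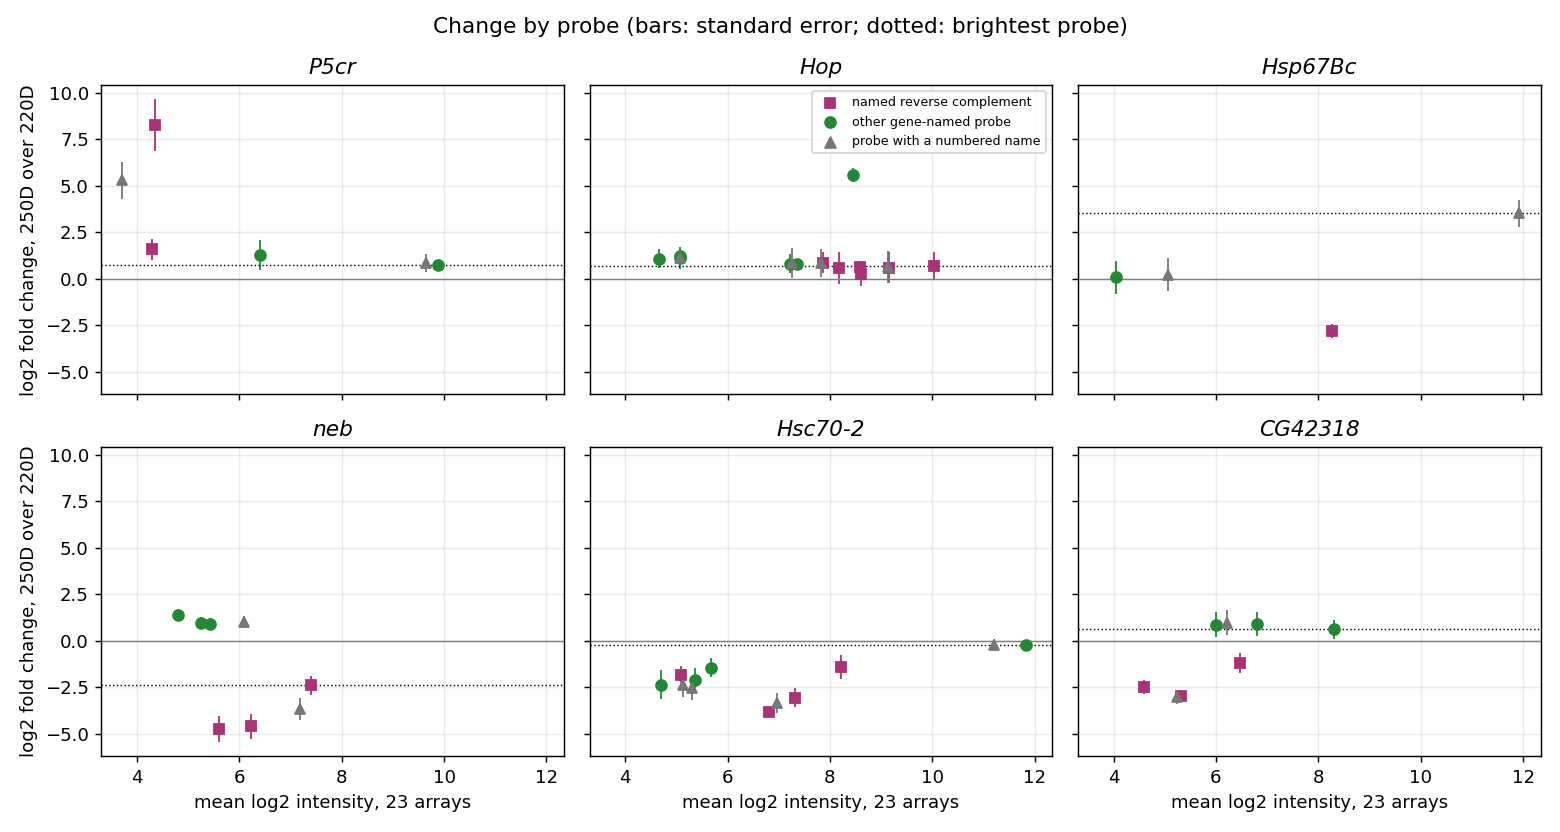
Log2 fold change of 250D over 220D (y axis) for each probe above background of 6 genes, against the mean log2 intensity of the probe over 23 arrays (x axis), with standard errors as bars. Squares are probes named as reverse complements, circles other probes named after the gene and triangles probes with a numbered name, and the dotted line is the brightest probe. Of P5cr 2 probes (8.28 and 5.29) and of Hop 1 probe (5.59) lie far above the rest of their gene.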

How the data were processed

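RNA of whole *D. montana* females was measured on custom Agilent 1-colour arrays, 23 in all. The authors deposited scanner files of Agilent Feature Extraction 10.7.1.1, of which the background-subtracted intensity per spot was used. These values are linear and not yet set between arrays. A deposited table gives 1 processed intensity for each probe, quantile-normalized by the authors, and its column for 7ND replicate c correlated with the scan at 0.698, against at least 0.990 for the others. It served as an alternative, as did the deposited median intensity of spot and local background. Here the 14800 gene spots were taken to log2 and quantile-normalized, the 8 spots of a probe averaged without outlier flags (in 43 cases all 8 were flagged and kept), and each gene was read from its probe of highest mean level (23 arrays). Of 219 genes listed, 1 had no probe (Jon66Cii). A probe was above background where more than 50% of its spots were. A bound is the mean of the measured group against the higher of the dim probe's own value and the lowest well-detected value of each array. Groups were compared with lmFit and eBayes over all 23 arrays (limma 3.58.1, R 4.3.3), with Benjamini-Hochberg adjustment over 218 genes, or over 1850 probes. Genes were called at an adjusted p under 0.05 and at least 2-fold, the difference of 2 contrasts at an adjusted p under 0.05. The number of arrays limits the precision. With 3 arrays against 3 an exact permutation test of 1 gene cannot go below 0.1, so none was used. The procedure was tested on simulated data, in which each gene had the same spread on all arrays. That test held no outlying array such as 7ND replicate c and does not cover its effect. Named genes are, among called genes with no overlap of arrays, the 20 that rose most and the 20 that fell most, further the called members of the lists described and, of lists of at most 3 measured genes, all members. The members and the gene lists were chosen with earlier results of these data known. The 10 genes whose change differed from the 50-day difference without 7ND replicate c were named after that was seen, and other genes that did not pass are named as examples of their lists.

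Alternatives were scaling on the 75th percentile or on 7 spike-in probes, no normalization, normexp with an offset of 50, the table of processed values, averaging of every probe of a gene, the brightest probe over the 6 arrays, a filter on genes near background, no minimum fold, the 6 arrays alone, 7ND replicate c left out, a block for the slide or for the replicate letter, and each replicate left out. Leaving out 150ND replicate c was added after the data were seen.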

Additional observations from a re-analysis of the deposited data

How the results depend on the processing

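Of the 47 called genes, 19 were called under each of the 19 alternative settings, 7 higher and 12 lower, and 28 lost the call under at least 1. The direction turned in 2, both under the mean of all probes: *Ace* had a log2 change of -0.63 and *sbb* of 0.39 there. The count of called genes was 71 without 7ND replicate c, and leaving out single replicates of 220D or 250D gave 30 to 47. The 30 came without 250D replicate b. Genes called higher numbered 30 without normalization, with the authors' table, with the 6 arrays alone and without 7ND replicate c, and 12 to 17 with single replicates left out. Genes called lower numbered 18 with spike-in scaling, and 18 to 30 with single replicates left out. The other settings kept these counts within 1.5 times of 47, 19 and 28. Genes that differed between the spring change and the 50-day difference numbered 12 with the authors' table, 10 without 7ND replicate c, 6 without 150ND replicate c, 1 with the mean of all probes, 1 with the replicate block and 0 to 2 with single replicates left out, where 2 came without 220D replicate c. The cause was not tested.

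In 220D and 250D a replicate letter went with a slide, and deviations of arrays with the same letter correlated at 0.40, 0.06 and 0.45 for a, b and c. The letters were not taken to pair the samples. With the replicate block 22 genes were called higher and 30 lower, the 47 among them. With the slide as a block 17 and 25 were called. Genes near background in both groups numbered 6, and for them the signal sets the limit.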
